A study of Mus musculus with 6 samples.

Results

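C-type lectin receptors are cell-surface proteins that share a fold first described in calcium-dependent, sugar-binding animal lectins. The group described here holds 10 genes, picked by symbol from the 34745 genes of the deposited table: Clec1b, Clec9a, Clec2d, Clec4g, Clec14a, Clec4f, Clec7a, Clec12a, Clec4n and Clec10a. All 10 symbols were found. RNA had been sequenced from liver sinusoidal endothelial cells (LSECs), the fenestrated lining of the hepatic blood spaces, in 3 libraries labelled ECKO and 3 labelled WT. ECKO denotes endothelial knockout of Tgfbr2, the type II receptor for TGF-beta, and WT denotes Tgfbr2f/f littermates that carry the floxed gene. Mice of both genotypes had been injected with the hepatotoxin carbon tetrachloride (CCl4) for 6 weeks, 2 times a week, so no group is free of CCl4. The Cre driver, the age and sex of the mice and the way LSECs were isolated are not stated in the labels, nor is it known whether each library came from a separate mouse. The p-values below therefore measure the spread between these libraries, which may be technical in part.

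Some C-type lectin receptors carry a cytoplasmic tyrosine motif that engages the kinase SYK, and others carry an inhibitory motif that recruits phosphatases. Ligands include glycans, exposed actin and podoplanin. In the liver, sinusoidal endothelium is known for endocytic lectins such as LSECtin, encoded by Clec4g. Kupffer cells, the resident macrophages of mouse liver, are known for Clec4f. Dectin-1 (Clec7a), Dectin-2 (Clec4n), Clec12a and Clec10a are mostly studied on myeloid cells.

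Library totals ranged from 17171850 to 18671217 counts in ECKO and from 17632271 to 25062755 in WT. Tgfbr2 itself had no lower level in ECKO. It stood at 498, 487 and 511 CPM (counts scaled to a common library size by TMM, which allows for library composition) in ECKO, against 387, 442 and 452 CPM in WT. The log2 fold change was 0.22 (SE 0.10; edgeR quasi-likelihood adjusted p = 0.228), and a transcript lacking only part of the gene would still be counted. Directions below are therefore those of the labels. Mitochondrial transcripts took 32.4%, 19.7% and 23.7% of counts in ECKO and 23.5%, 14.2% and 11.5% in WT (exact permutation p = 0.2, two-sided, where 3 libraries against 3 cannot go below 0.1). Pan-endothelial markers were abundant in every library, summing to 18692 to 20495 CPM in ECKO and 15835 to 17096 CPM in WT. Of the 15 tested, Esam and Pecam1 rose and 13 did not pass. The 2 calls became 0 without ECKO replicate 1, 2 or 3 or WT replicate 2 or 3 (6 to 8 of the 15 at an unadjusted p under 0.05), under total count scaling and on FPKM, while DESeq2 called 5. Log2 fold changes were positive in 14 of the 15, with a median log2 fold change of 0.23 against 0.01 over all genes; the part of this endothelial difference in the members' values was not tested. LSEC markers summed to 33925 to 41024 CPM in ECKO and 31778 to 37153 CPM in WT, with positive log2 fold changes in 15 of the 19 tested and a median of 0.20. None of the 19 passed; at an unadjusted p under 0.05 4 of them did, and DESeq2 called 3. Stab2, a scavenger receptor that defines LSECs, averaged 3186 ± 511 CPM in ECKO and 3271 ± 395 CPM in WT, and Oit3, which had the smallest p of the list, averaged 2734 ± 205 CPM in ECKO and 2089 ± 22.2 CPM in WT (SD, n = 3 each; edgeR adjusted p = 0.0850).

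Clec1b, Clec9a and Clec2d rose in ECKO, and no member fell. In bulk samples such as these, more cells of a type and more RNA per cell cannot be told apart. The 3 genes were 3 of the 8 members that had enough counts to be tested, where 1.24% of all genes tested were called higher, 2.79% lower and 4.03% in either direction (edgeR quasi-likelihood test, adjusted p under 0.05). The members were chosen with earlier results of these data known, so setting their share beside that of all genes is not a test of the family. Clec4g, Clec14a, Clec4f, Clec7a and Clec12a did not pass, and Clec4n and Clec10a were below the filter on low counts. Clec12a passed the filter on low counts through the WT libraries alone, and Clec7a through all 3 WT libraries and 2 of ECKO. Clec12a could thus enter the test only with high WT values, while Clec7a needed a WT library past the filter beside its 2 of ECKO. The members' calls depended on single libraries. Without ECKO replicate 1, ECKO replicate 3, WT replicate 2 or WT replicate 3, no member passed (0 of 8). At an unadjusted p under 0.05 the same fits held 7, 6, 5 and 6 of the 8, against 20%, 19.4%, 19.8% and 16.7% of all genes tested. These fits share most of their libraries, and the 8 include Clec7a and Clec12a, so these counts are not independent support for the calls. Without ECKO replicate 2, 2 members passed, and without WT replicate 1, 4 did. Over all genes, 35 and 109 were called without ECKO replicates 1 and 3, 193 without ECKO replicate 2, 1012 without WT replicate 1, and 246 and 91 without WT replicates 2 and 3, against 552 with all 6 libraries. DESeq2 called 5 members (4 higher, 1 lower) and 11.0% of all genes, limma-voom called 2 members and 2.24% of all genes, and leaving out mitochondrial transcripts left the number at 3. Calls over all genes split into 170 higher and 382 lower under TMM, but into 63 and 1209 when libraries were scaled by total count and into 28 and 379 on FPKM. Those scales moved the median log2 fold change of all genes to -0.23 and -0.15. Under total count scaling 0 members were higher and 1, Clec7a, was lower, where 9.29% of all genes were called. On FPKM 3.89% of all genes were called and none of the 6 members tested, with 3 of them at an unadjusted p under 0.05. Clec1b then stood at 0.36 and 0.35, Clec9a at 0.51 and 0.43 and Clec2d at 0.64 and 0.60 on the log2 scale.

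**Figure D1:**
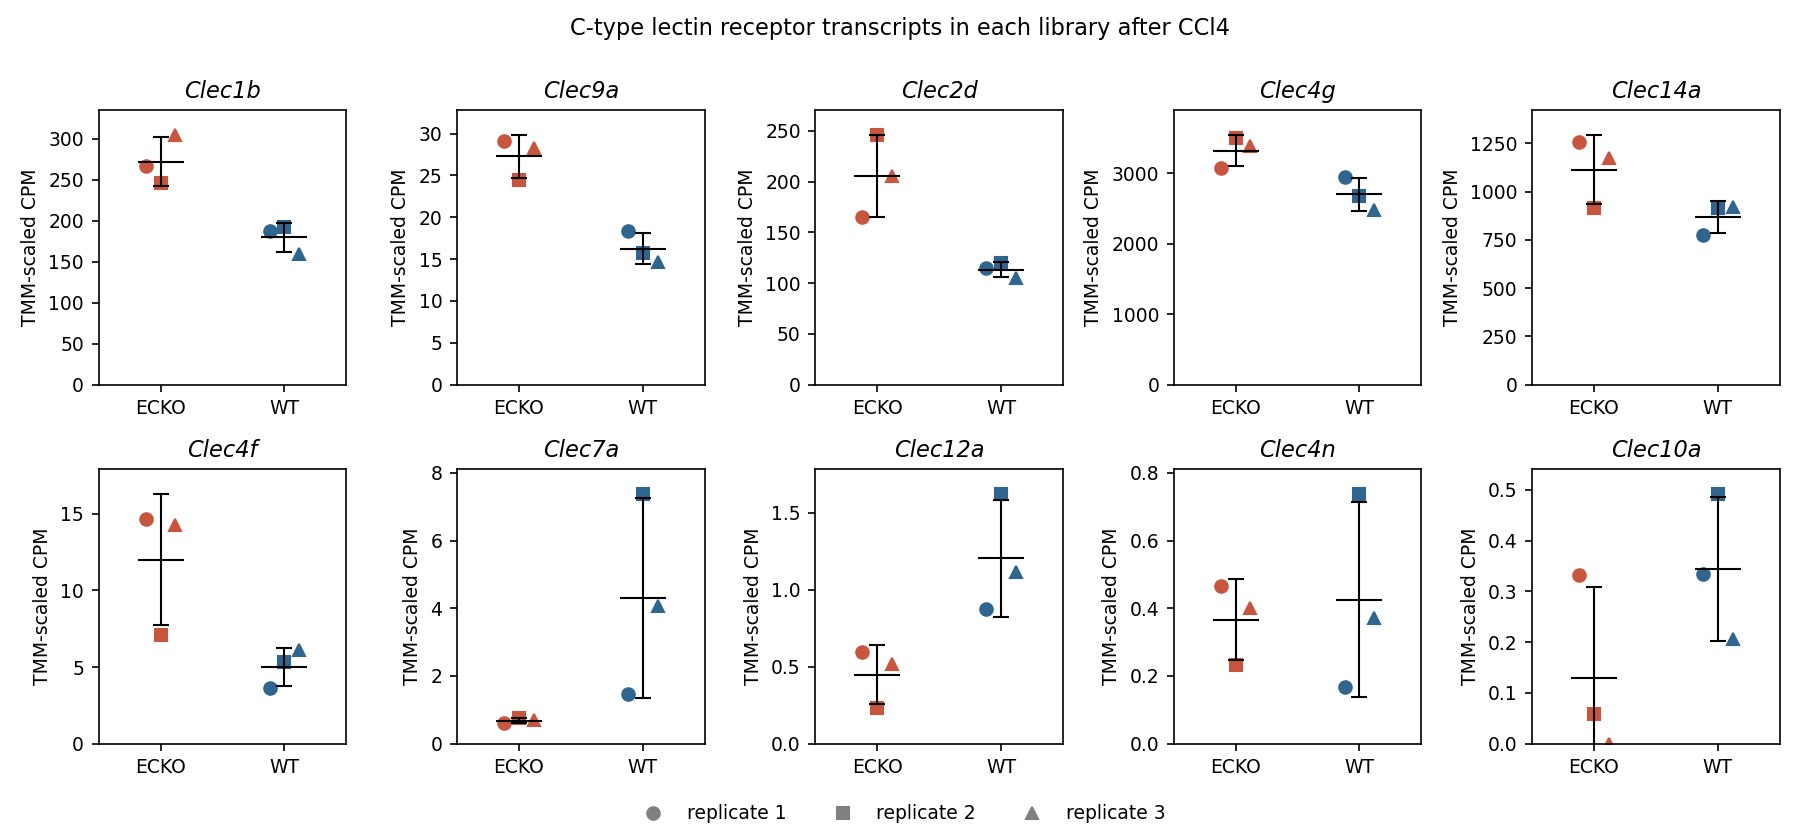
TMM-scaled CPM of the 10 C-type lectin receptor genes in each library (points, shaped by replicate), with the group mean (long bar) and SD (whiskers), ECKO left of WT and each y axis starting at 0. The ECKO points of Clec1b, Clec9a, Clec2d, Clec4g and Clec4f all sit above the WT points, those of Clec7a and Clec12a all sit below, and those of Clec14a, Clec4n and Clec10a overlap.

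The windows before the transcription start of the 3 genes that rose and of Clec4g are shown because Clec1b and Clec9a overlap on chromosome 6 and rose together. Sequences are RefSeq's for build GRCm38.p6, which held 8 of the 10 members, each 250 bases long, 5′ to 3′ on the gene's strand. Clec1b is chr6:129397047-129397296 (plus strand), Clec9a chr6:129408612-129408861 (plus), Clec2d chr6:129180365-129180614 (plus) and Clec4g chr8:3720652-3720901 (minus). Capitals mark matches on either strand to GGAA, the core bound by ETS factors, and to TATAAA.
Clec1b: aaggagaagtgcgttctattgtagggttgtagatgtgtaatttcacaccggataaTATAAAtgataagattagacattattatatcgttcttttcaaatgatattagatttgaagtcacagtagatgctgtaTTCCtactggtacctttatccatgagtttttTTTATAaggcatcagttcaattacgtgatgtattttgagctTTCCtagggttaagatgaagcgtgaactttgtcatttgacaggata
Clec9a: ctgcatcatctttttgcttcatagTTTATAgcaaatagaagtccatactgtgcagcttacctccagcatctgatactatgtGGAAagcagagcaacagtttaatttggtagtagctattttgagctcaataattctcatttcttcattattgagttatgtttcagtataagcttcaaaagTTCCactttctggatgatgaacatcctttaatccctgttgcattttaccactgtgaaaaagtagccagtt
Clec2d: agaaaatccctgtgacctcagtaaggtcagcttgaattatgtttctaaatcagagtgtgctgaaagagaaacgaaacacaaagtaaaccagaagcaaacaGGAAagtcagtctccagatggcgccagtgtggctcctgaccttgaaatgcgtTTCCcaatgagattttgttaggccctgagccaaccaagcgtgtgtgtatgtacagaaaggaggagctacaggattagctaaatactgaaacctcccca
Clec4g: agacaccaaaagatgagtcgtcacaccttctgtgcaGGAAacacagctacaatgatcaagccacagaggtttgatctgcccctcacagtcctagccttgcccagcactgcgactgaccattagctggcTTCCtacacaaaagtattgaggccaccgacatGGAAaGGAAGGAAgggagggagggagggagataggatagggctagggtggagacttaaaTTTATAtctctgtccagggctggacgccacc
GGAA occurred in each of these windows, as it did in 93.4% of all 32851 promoter windows of that length. TATAAA occurred in those of Clec1b, Clec9a and Clec4g and in 12.4% of all windows. It occurred in no window of Clec2d, Clec4f, Clec7a, Clec12a or Clec14a. Matches began 195 and 87 bases before the start in Clec1b, 226 in Clec9a and 31 in Clec4g. The match at 195 lay on the gene's strand and the others on the opposite strand. Longer motifs were searched on both strands as well: AGATAA of GATA factors (9.99% of all windows), GGAAGT of ETS factors, which contains the core above (19.7%), TGANTCA of AP-1 (6.75%) and GTCTAGAC of SMAD proteins (0.167%). None of these 4 exact strings was found in the 4 windows shown. Variants of the GATA, AP-1 and SMAD strings were not searched, so sites for these factors may still be present. The SMAD string is rare in all windows, so its absence says little. Guanine and cytosine made up 33.2% of the Clec1b window and 35.6% of the Clec9a window, against 44.8% for Clec2d and 52.0% for Clec4g.

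Clec1b (ENSMUSG00000030159, chromosome 6, 129397297 to 129409335, plus strand, mm10/GRCm38) encodes CLEC-2, a receptor for podoplanin that signals through SYK and is best known on platelets. It held 267, 246 and 305 CPM in the libraries labelled ECKO (4011, 4227 and 5311 counts), against 188, 192 and 160 CPM in WT (4497, 3917 and 3856 counts). All ECKO libraries stood above all WT libraries, as was the case in either direction for 30.9% of all genes tested. The means were 272 ± 29.8 CPM in ECKO and 180 ± 17.8 CPM in WT (SD, n = 3 each), and the log2 fold change was 0.60 (SE 0.12; edgeR adjusted p = 0.0414). Leaving out single libraries gave adjusted p-values of 0.0402 to 0.154, and the value passed only without WT replicate 1. Under limma-voom the adjusted p was 0.0509.

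Markers of platelets ranged from 0 to well above it, and their part in the Clec1b values was not tested. Itga2b, the platelet integrin chain, had 438 counts in ECKO and 800 in WT, or 8.85 ± 0.987 CPM and 11.8 ± 2.47 CPM (SD, n = 3 each), and Gp1ba, a chain of the von Willebrand factor receptor, had 57 counts in ECKO and 162 in WT. Gp6, a platelet collagen receptor, had 0 counts in the ECKO libraries together and 1 in the WT libraries, where the floor of 3 counts that a 0 allows lies at 0.124 to 0.200 CPM. Gp9 had 4 counts in ECKO and 6 in WT, and Treml1 had 2 in ECKO and 4 in WT. Pf4, the platelet chemokine, averaged 1.90 CPM in ECKO and 2.26 CPM in WT. Of 12 platelet and megakaryocyte markers, 4 were tested (Itga2b, Gp1ba, Pf4 and Itgb3) and none passed, with a median log2 fold change of -0.33; at an unadjusted p under 0.05 1 did, and DESeq2 called 1. Their sum, 125 to 144 CPM in ECKO and 95.7 to 118 CPM in WT, was mostly Itgb3, an integrin chain that endothelium also carries, at 122 CPM in ECKO and 88.8 CPM in WT.

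Clec9a (ENSMUSG00000046080, chromosome 6, 129408862 to 129424763, plus strand) encodes DNGR-1, a receptor for exposed actin filaments that is best known on conventional dendritic cells. It held 29.2, 24.4 and 28.3 CPM in ECKO (438, 420 and 493 counts), against 18.3, 15.7 and 14.7 CPM in WT (438, 320 and 354 counts). The groups did not overlap. The log2 fold change was 0.75 (SE 0.13; edgeR adjusted p = 0.0307), with means of 27.3 ± 2.53 CPM in ECKO and 16.2 ± 1.88 CPM in WT (SD, n = 3 each). It passed without ECKO replicate 2 and without WT replicate 1, and had adjusted p-values of 0.0775 to 0.115 without each other library.

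Markers listed for dendritic cells also ranged from near 0 to well above it, and their part in the Clec9a values was not tested. Xcr1, a chemokine receptor of the dendritic cells that carry Clec9a, had 0 counts in ECKO and 1 in WT. Itgae had 3 in ECKO and 0 in WT. Flt3, a growth factor receptor of dendritic cells, had 1 count in ECKO and 17 in WT, and Batf3, a transcription factor they need, had 11 in ECKO and 40 in WT. Cadm1 had 220 counts in ECKO and 475 in WT, Naaa had 194 in ECKO and 282 in WT, and Irf8, a transcription factor, averaged 75.9 ± 13.2 CPM in ECKO and 107 ± 53.9 CPM in WT (SD, n = 3 each). Of 15 dendritic cell markers listed, 9 were tested, with negative log2 fold changes in all 9 and a median of -0.69. Wdfy4, at 0.357 ± 0.188 CPM in ECKO and 1.84 ± 0.695 CPM in WT (SD, n = 3 each), was the 1 call, at -2.33 on the log2 scale (SE 0.51; edgeR adjusted p = 0.0496). It passed the filter through the WT libraries alone, and its adjusted p was 0.0824 under limma-voom and 0.0877 to 0.167 without any 1 library other than WT replicate 1 (0.0214). The list summed to 362 to 502 CPM in ECKO and 397 to 621 CPM in WT, most of it from Zbtb46, Fscn1 and Irf8. The sum thus rests on few of the 15 genes and was not taken as a measure of the cells that carry Clec9a.

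For every 100 counts of Clec1b there were 10.9, 9.94 and 9.28 counts of Clec9a in ECKO and 9.74, 8.17 and 9.18 in WT. The ratio averaged 10.05 ± 0.824 in ECKO and 9.03 ± 0.796 in WT (SD, n = 3 each; exact permutation p = 0.2, two-sided). In the GENCODE M21 annotation, whose coordinates for both genes equal those of the table, the last exon of the transcript Clec1b-204, typed as a retained intron, runs from 129405107 to 129409335. That exon of 4229 bases covers the whole first exon of Clec9a, 184 bases from 129408862 to 129409045, and the Clec9a window printed above lies inside it. The shared bases were 5.59% of all exonic bases of Clec9a. Both genes lie on the same strand, so reads in the shared exon cannot be assigned to either with certainty, whatever strand setting was used. What part of the Clec9a counts comes from RNA that starts at Clec1b was not tested.

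**Figure D2:**
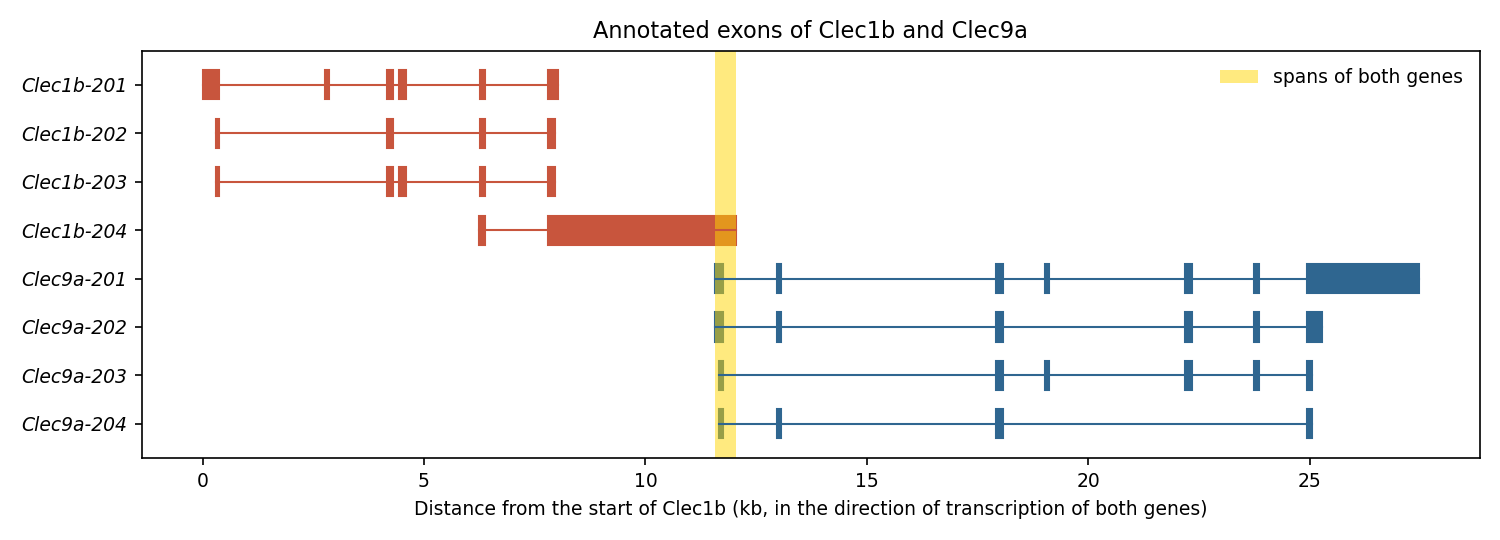
Annotated exons (boxes) of the 4 transcripts of Clec1b and the 4 of Clec9a, by distance in kb from the start of Clec1b, with the stretch that lies in both genes shaded. The last exon of Clec1b-204 extends past the first exons of all Clec9a transcripts, while the other Clec1b transcripts end before Clec9a starts.

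Clec2d (ENSMUSG00000030157, chromosome 6, 129180615 to 129186534, plus strand) encodes Clr-b in mice, a ligand that is recognised by the inhibitory natural killer cell receptor Klrb1b. It held 165, 246 and 205 CPM in ECKO (2485, 4229 and 3579 counts), against 115, 120 and 105 CPM in WT (2749, 2443 and 2538 counts). The lowest ECKO library stood above the highest WT library, and ECKO libraries were spread more widely. The means were 205 ± 40.1 CPM in ECKO and 113 ± 7.57 CPM in WT (SD, n = 3 each), and the log2 fold change was 0.86 (SE 0.15; edgeR adjusted p = 0.0304). Without single libraries the adjusted p was 0.0324 to 0.115, and it passed only without WT replicate 1. Of the 50-base stretches in its transcript, 1.98% also occur in Clec2g or Clec2i. Klrb1b had 0, 0 and 1 counts in ECKO and 0, 1 and 3 in WT, and markers of T and NK cells summed to 4.13 to 6.52 CPM in ECKO and 3.35 to 6.53 CPM in WT.

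Clec4g (ENSMUSG00000074491, chromosome 8, 3707064 to 3720651, minus strand) encodes LSECtin, a glycan receptor of sinusoidal endothelium. It held 3072, 3493 and 3391 CPM in ECKO, against 2942, 2674 and 2481 CPM in WT. The groups did not overlap, with ECKO replicate 1 close to WT replicate 1. The log2 fold change of 0.30 (SE 0.12) did not pass (edgeR adjusted p = 0.180), and the alternatives gave 0.06 to 0.37, the lowest under total count scaling or on FPKM. The antisense gene Gm16553, which overlaps 5.93% of its exonic bases, had 13 counts over all 6 libraries.

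Clec14a (ENSMUSG00000045930, chromosome 12, 58264720 to 58269258, minus strand), a glycoprotein of vascular endothelium that binds multimerin 2, held 1256, 913 and 1173 CPM in ECKO, against 774, 916 and 920 CPM in WT. ECKO replicate 2 lay within the WT range. Its log2 fold change was 0.36 (SE 0.14; edgeR adjusted p = 0.190). Mmrn2, which encodes that ligand, averaged 950 ± 83.5 CPM in ECKO and 830 ± 129 CPM in WT (SD, n = 3 each; edgeR adjusted p = 0.425). Among relatives outside the group, Clec1a, a receptor gene that lies next to Clec9a, averaged 139 ± 31.2 CPM in ECKO and 121 ± 4.11 CPM in WT (SD, n = 3 each; edgeR adjusted p = 0.488).

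Clec4f (ENSMUSG00000014542, chromosome 6, 83644542 to 83656187, minus strand), the galactose-binding receptor of mouse Kupffer cells, held 14.6, 7.09 and 14.3 CPM in ECKO (220, 122 and 249 counts), against 3.64, 5.31 and 6.09 CPM in WT (87, 108 and 147 counts). The groups did not overlap, but ECKO replicate 2 lay nearer to the WT libraries than to the other ECKO libraries. The log2 fold change was 1.26 (SE 0.32) and did not pass (edgeR adjusted p = 0.0711). It passed without ECKO replicate 2 (adjusted p = 0.0418), without the filter on low counts (0.0486) and under DESeq2 (0.00475). The 13 Kupffer cell markers summed to 362 to 439 CPM in ECKO and 307 to 453 CPM in WT, with overlapping groups, and none of the 12 tested passed; at an unadjusted p under 0.05 3 of them did, and DESeq2 called 1. Per 1000 CPM of these markers, Clec4f stood at 34.7, 19.6 and 32.6 CPM in ECKO and at 11.9, 11.7 and 16.1 CPM in WT (exact permutation p = 0.1, the smallest that 3 against 3 can give, two-sided). Among these markers Timd4 had 41 counts in ECKO and 21 in WT, Cd68 had 120 and 346, and Slc40a1 and Hmox1, which other liver cells also express, made up most of the sum.

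Clec7a (ENSMUSG00000079293, chromosome 6, 129461591 to 129472779, minus strand) encodes Dectin-1, a receptor for fungal beta-glucan, and is typed as a polymorphic pseudogene in GENCODE M21. Its level was 0.599, 0.755 and 0.688 CPM in ECKO (9, 13 and 12 counts), against 1.46, 7.37 and 4.06 CPM in WT (35, 150 and 98 counts). The ECKO libraries were close together and all lower, while the WT libraries differed from each other by more than the gap between the groups. The log2 fold change was -2.64 (SE 0.60) and did not pass (edgeR adjusted p = 0.0557). It passed in 5 of 13 alternatives, among them without WT replicate 1 (adjusted p = 0.00727), without the filter (0.0354), under total count scaling (0.0193) and under DESeq2 (3.20e-04).

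Clec12a (ENSMUSG00000053063, chromosome 6, 129342691 to 129365303, plus strand), an inhibitory receptor of myeloid cells that binds uric acid crystals, held 9, 4 and 9 counts in ECKO, against 21, 33 and 27 counts in WT. These correspond to 0.599, 0.232 and 0.516 CPM in ECKO and 0.878, 1.62 and 1.12 CPM in WT, with no overlap. The log2 fold change was -1.42 (SE 0.47; edgeR adjusted p = 0.128). Clec4n (ENSMUSG00000023349, chromosome 6, 123229843 to 123247021, plus strand), the mannan receptor Dectin-2, had 7, 4 and 7 counts in ECKO and 4, 15 and 9 in WT. Clec10a (ENSMUSG00000000318, chromosome 11, 70156197 to 70170834, plus strand), a receptor for terminal galactose and N-acetylgalactosamine, had 5, 1 and 0 counts in ECKO and 8, 10 and 5 in WT. For both the groups overlapped in CPM. Neither entered the main test, and without the filter on low counts their log2 fold changes were -0.19 for Clec4n (SE 0.69; edgeR adjusted p = 0.902) and -1.40 for Clec10a (SE 1.01; edgeR adjusted p = 0.493). Of the 50-base stretches in Clec10a transcripts, 9.02% also occur in other genes, chiefly its paralog Mgl2, so its counts are uncertain.

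Monocyte and neutrophil markers, like Clec7a and Clec12a, were lower in all ECKO libraries when summed. The sums of Kupffer cell and of dendritic cell markers overlapped between the groups. The 16 monocyte and neutrophil markers summed to 56.5 to 62.5 CPM in ECKO and 76.6 to 168 CPM in WT, without overlap, and 8 of the 9 tested had negative log2 fold changes. Mpo, a granule peroxidase, fell, with means of 1.36 ± 1.14 CPM in ECKO and 13.1 ± 4.93 CPM in WT (SD, n = 3 each). Its log2 fold change was -3.29 (SE 0.61; edgeR adjusted p = 0.0374), and 8 did not pass. Like Clec7a, Mpo passed the filter on low counts through all 3 WT libraries and 2 of ECKO, and so needed a WT library to enter the test. No marker of the list passed without ECKO replicate 1, 2 or 3 or WT replicate 2 or 3 (5 or 6 at an unadjusted p under 0.05) or under limma-voom, while 4 passed without WT replicate 1 and 4 with DESeq2. Itgam, an integrin chain of myeloid cells, had 1 count in ECKO and 95 in WT, and Ly6g had 0 in every library. B and plasma cell markers summed to 7.79 to 13.1 CPM in ECKO and 22.9 to 49.6 CPM in WT. WT replicate 1, which had the lowest Clec7a and Clec12a of its group, also had the lowest monocyte and neutrophil sum of the WT libraries, 76.6 CPM. It also had the lowest WT sums for B and plasma, stellate, Kupffer and T and NK cell markers (22.9, 1785, 307 and 3.35 CPM). Its sums of pan-endothelial, LSEC, dendritic cell and hepatocyte markers were the highest in WT. The low sum was thus not particular to monocytes and neutrophils. The part of any of these markers in the values of Clec7a and Clec12a was not tested.

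**Figure D3:**
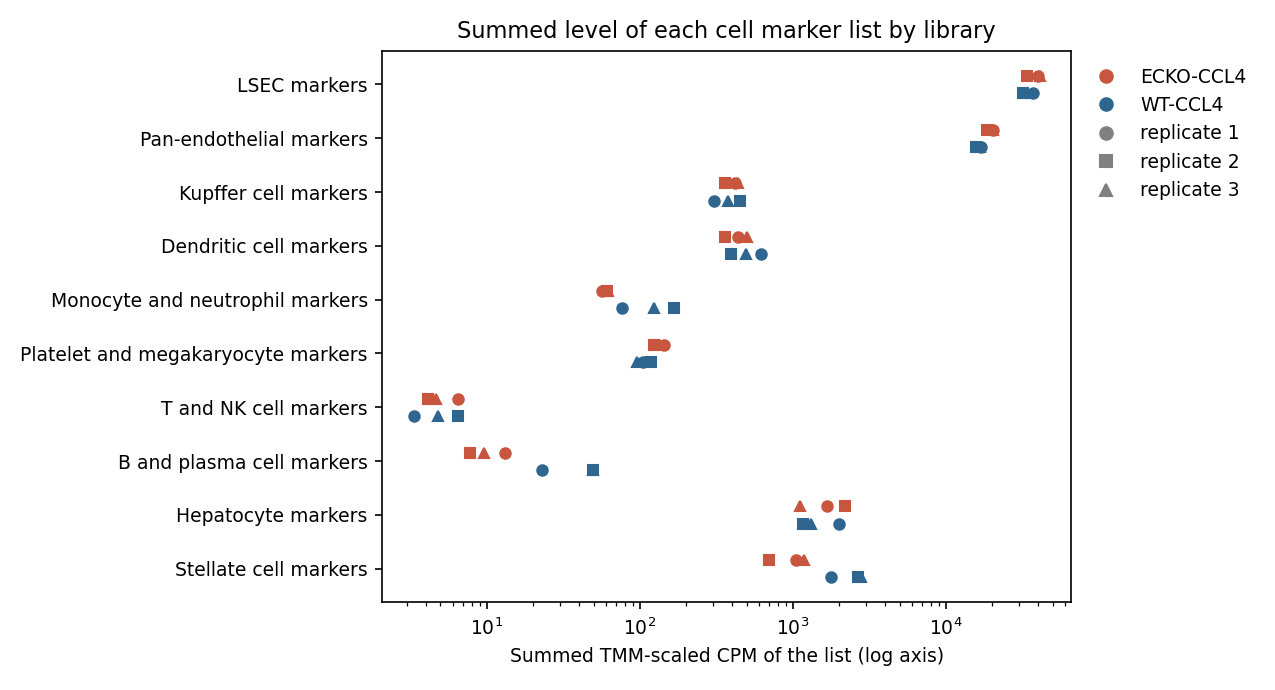
Summed TMM-scaled CPM of each cell marker list by library on a log axis, with ECKO points above WT points in each row and shapes for replicates. Sums for monocytes and neutrophils, B and plasma cells and stellate cells were lower in every ECKO library, those for pan-endothelial and platelet lists were higher in every ECKO library, and the other 5 lists overlapped. The platelet sum was mostly Itgb3, which endothelium also carries, and the median log2 fold change of the tested platelet genes was -0.33.

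Levels of different genes are given per length, in FPKM (fragments scaled by gene length and library size) as the authors deposited them. Over all 6 libraries the means ran from Clec4g (780 FPKM) through Clec14a (217 FPKM), Clec2d (130 FPKM), Clec1b (37.9 FPKM), Clec9a (5.27 FPKM) and Clec4f (2.93 FPKM) down to Clec7a (0.787 FPKM), Clec4n (0.154 FPKM), Clec12a (0.134 FPKM) and Clec10a (0.0419 FPKM). Clec4g, Clec2d and Clec1b stood clear of the next lower gene in every library. The ranges of Clec14a and Clec2d overlapped, as did those of each neighbouring pair from Clec9a down. This order depends on gene length. The length implied by the authors' FPKM equalled, within 1 base, the summed length of all distinct annotated exons for 9 of the 10 genes, overlapping exons being counted repeatedly; Clec14a was the exception. For Clec1b it was 5888 bases, of which 4229 are the Clec1b-204 exon that reaches Clec9a. With the length of the longest coding transcript in its place, 1090 bases, Clec1b reached 205 on the same scale and its range overlapped those of Clec14a (216) and Clec2d (130). On that scale Clec4g stood at 2082 and remained clear of the rest.

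Of the 10 members, 5 lie within 292 kb of chromosome 6, from Clec2d to Clec7a, where the table lists 11 genes. Clec2d, Clec1b and Clec9a rose there, and none of the 5 tested genes that are not members passed, at an edgeR adjusted p of 0.0803 or more. At an unadjusted p under 0.05 1 of these 5 did, Cd69, an early activation lectin of leukocytes, at 1.92 ± 0.431 CPM in ECKO and 7.22 ± 4.42 CPM in WT (SD, n = 3 each). DESeq2 called 1 of the 5. Along this stretch, Clec12a, Cd69 and Clec7a, which had lower values in ECKO, lie between or beside the genes that rose. The remaining tested genes there had positive log2 fold changes and did not pass. These were 0.51 for 2310001H17Rik, 0.53 for RP23-250E1.9, 0.20 for Clec1a and 0.17 for Clec12b. Whether the stretch shifted as a whole was not tested.

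Among 62 other genes with a C-type lectin domain, 30 were tested, of which 1 rose, 3 fell and 26 did not pass, with a median log2 fold change of -0.16 against 0.01 over all genes. Selp, the endothelial adhesion molecule P-selectin, rose by 1.01 on the log2 scale (SE 0.18; edgeR adjusted p = 0.0314), at 107 ± 18.1 CPM in ECKO and 53.0 ± 11.3 CPM in WT (SD, n = 3 each). Mrc2, a collagen uptake receptor of fibroblasts, fell by 2.64 on the log2 scale (SE 0.36; edgeR adjusted p = 0.0141). It held 3.13, 1.74 and 2.24 CPM in ECKO, against 8.53, 16.9 and 18.8 CPM in WT. Cd248, endosialin of fibroblasts and pericytes, fell by 2.17 (SE 0.46; edgeR adjusted p = 0.0458), with means of 1.31 ± 0.568 CPM in ECKO and 5.92 ± 2.65 CPM in WT (SD, n = 3 each). Colec11, a soluble collectin of stellate cells, fell by 0.70 (SE 0.12; edgeR adjusted p = 0.0250), at 59.2 ± 7.93 CPM in ECKO and 96.3 ± 3.41 CPM in WT (SD, n = 3 each). The 14 stellate cell markers, of which Colec11 is a member, summed to 699 to 1178 CPM in ECKO and 1785 to 2803 CPM in WT, and 7 of them fell: the collagens Col1a1 and Col3a1, Dcn, Reln, Tcf21, Cygb and Colec11. The 7 became 1 without ECKO replicate 1, 4 without ECKO replicate 2, ECKO replicate 3 or WT replicate 2, 2 without WT replicate 3 and 9 without WT replicate 1. The part of these cells in the values of Mrc2, Cd248 and Colec11 was not tested. The endothelial lectins Mrc1 and Cd93 averaged 2517 ± 528 and 586 ± 112 CPM in ECKO, against 2274 ± 109 and 556 ± 64.9 CPM in WT (SD, n = 3 each), and did not pass. The list's calls also depended on single libraries: none passed without ECKO replicate 1 or ECKO replicate 2, 1 passed without ECKO replicate 3 and 2 without WT replicate 3. At an unadjusted p under 0.05 the fits without ECKO replicates 1 and 2 held 10 and 13, and DESeq2 called 8 and limma-voom 2.

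**Figure D4:**
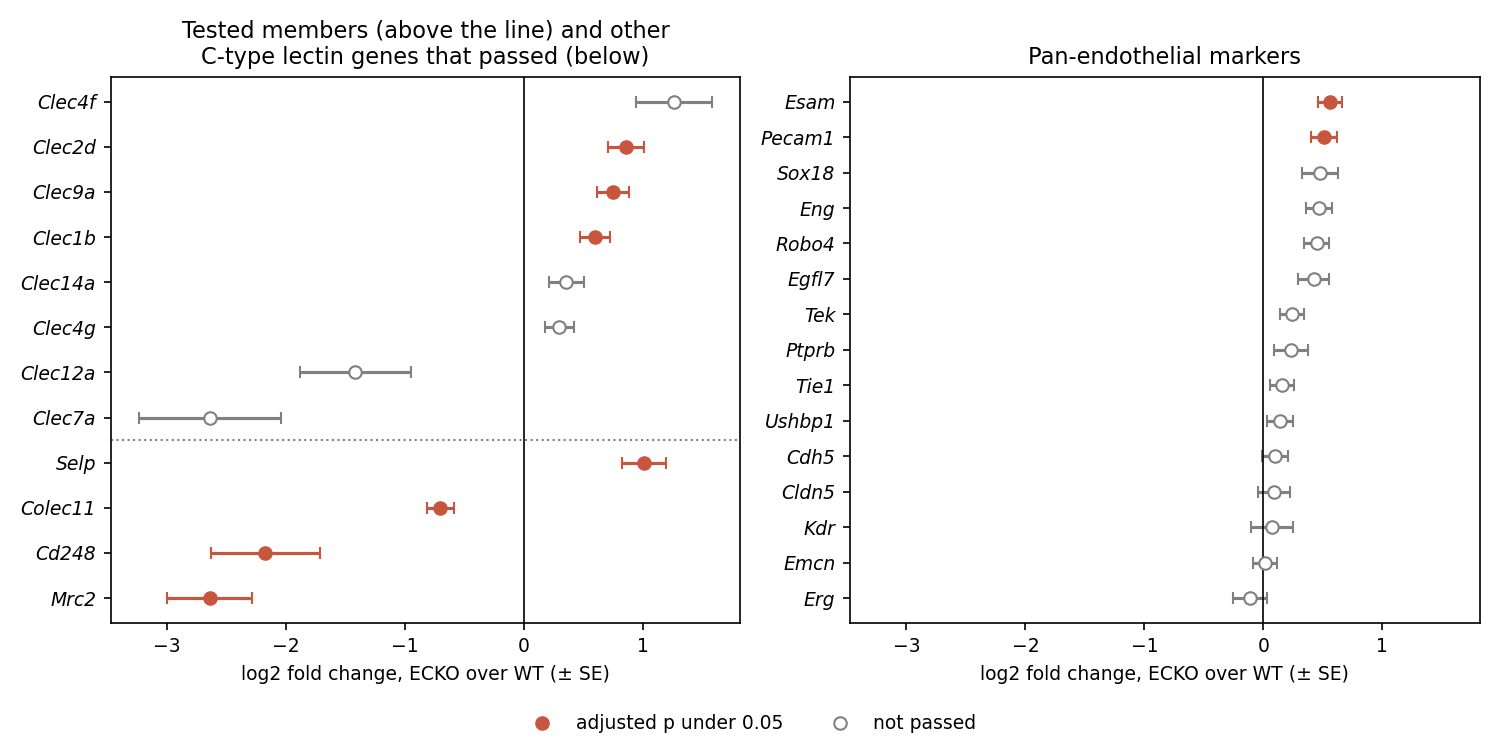
Log2 fold changes of ECKO over WT with SE whiskers for the 8 tested members and the 4 other C-type lectin genes that passed (left) and for 15 pan-endothelial markers (right), filled where the edgeR adjusted p was under 0.05. Clec2d, Clec9a and Clec1b are filled on the higher side at 0.60 to 0.86, and the pan-endothelial markers run from -0.11 (Erg) to 0.56 (Esam).

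Signalling genes downstream of the activating receptors were called about as often as all genes, 1 of 27 (3.7%) against 4.03%. Of 30 genes of the SYK-CARD9 route and the phosphatases that oppose it, 27 were tested; Src fell by 1.09 on the log2 scale (SE 0.24; edgeR adjusted p = 0.0491) and 26 did not pass, with a median of -0.12. Src, a tyrosine kinase, held 4.66, 4.53 and 6.82 CPM in ECKO, against 8.70, 12.8 and 12.7 CPM in WT. The list had 0 calls without any 1 of ECKO replicates 1, 2 and 3 and WT replicates 2 and 3 (4 to 6 of its genes at an unadjusted p under 0.05 in those fits) and 2 without WT replicate 1, while limma-voom gave 0 and DESeq2 3. Syk, the kinase that Clec1b, Clec7a and Clec9a engage, held 2.20, 1.16 and 2.41 CPM in ECKO (33, 20 and 42 counts), against 3.01, 7.27 and 5.51 CPM in WT (72, 148 and 133 counts), a log2 fold change of -1.45 (SE 0.41; edgeR adjusted p = 0.0888). Prkcd, a protein kinase C that links SYK to CARD9, had a log2 fold change of -0.71 (SE 0.19; edgeR adjusted p = 0.0802). Fcer1g, the adaptor that Clec4n needs, averaged 34.3 ± 5.83 CPM in ECKO and 24.1 ± 4.46 CPM in WT (SD, n = 3 each; edgeR adjusted p = 0.136). Card9 was below the filter, at 2 counts in ECKO and 23 in WT.

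Of 11 genes listed as ligands or reported partners of the members, 9 were tested, 2 fell and 7 did not pass. Anxa1, annexin A1, held 29.6, 33.8 and 31.5 CPM in ECKO, against 67.6, 62.0 and 56.9 CPM in WT, a log2 fold change of -0.97 (SE 0.11; edgeR adjusted p = 0.00938). Cd44, the hyaluronan receptor, held 2.53, 1.63 and 2.12 CPM in ECKO, against 6.11, 11.8 and 7.58 CPM in WT, a log2 fold change of -2.02 (SE 0.31; edgeR adjusted p = 0.0212). Neither passed without ECKO replicate 1 (0 of 9, with 2 at an unadjusted p under 0.05, while DESeq2 called 3), and 1 gene of the list passed without ECKO replicate 2, ECKO replicate 3 or WT replicate 3. Pdpn, podoplanin, the ligand of the receptor that Clec1b encodes, held 0.932, 2.44 and 0.401 CPM in ECKO, against 2.84, 6.58 and 2.69 CPM in WT. Its log2 fold change of -1.67 (SE 0.64) did not pass (edgeR adjusted p = 0.174). Hspg2, the basement membrane proteoglycan perlecan, had a log2 fold change of -0.51 (SE 0.17; edgeR adjusted p = 0.128).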

How the data were processed

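RNA-seq libraries of mouse LSECs, 3 labelled ECKO and 3 labelled WT by sample title, were compared. Reads were aligned with HISAT2 2.0.4 and assembled with StringTie 1.3.0 on mm10/GRCm38, per the submitters' processing notes; the counting program, its strand setting and the annotation release are not stated there. The authors deposited raw read counts per gene and FPKM values per gene for every library, per the file headers. Floors cover counting error only: a count of 0 allows up to 3 counts.

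From the counts, edgeR 4.0.16 (R 4.3.3) was run with TMM scaling, a filter on low counts (filterByExpr, minimum count 10, minimum total 15) and the robust quasi-likelihood test, two-sided, with Benjamini-Hochberg adjustment over 13692 genes and a threshold of 0.05. The code was tested on simulated data. Alternatives were other scalings, no filter, DESeq2 1.42.0, limma-voom (limma 3.58.1), limma on log2(FPKM + 1) for genes with a mean of at least 1 FPKM, a replicate block, no mitochondrial transcripts, and each library left out. IDs matched GENCODE M21 for 34267 of 34745 genes (98.6%), and promoter windows came from RefSeq.

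The members and gene lists were chosen with earlier results of these data known. Named genes were all members, Tgfbr2, genes of each lectin, partner or signalling list that passed and the 4 with the smallest p in each, and of marker lists the sums, genes at 0 and genes that passed. Clec1a, Mmrn2, Klrb1b, Card9, Cd69, Mrc1, Cd93, Stab2, Oit3, Erg, Itgam and the platelet, dendritic and Kupffer cell markers that did not pass were named in addition, after their values were seen. Calls among B and plasma cell markers are not reported here.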

Additional observations from a re-analysis of the deposited data

How the results depend on the processing

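The count of genes called, 552 with edgeR and TMM, became 1272 under total count scaling, 1508 with DESeq2 and 307 with limma-voom, and ranged from 35 to 1012 when single libraries were left out. The 3 members called became 1 under total count scaling, 5 without the filter, 5 with DESeq2 and 0 on FPKM, where fewer members were tested, and ranged from 0 to 4 without single libraries. The 4 other C-type lectin genes called became 8 with DESeq2 and 2 with limma-voom, and 0 to 6 without single libraries. The 1 signalling gene called became 4 under total count scaling, 3 with DESeq2, 0 with limma-voom and 0 on FPKM, and 0 to 2 without single libraries. The cause was not tested. Of 110 alternative log2 fold changes of members, 80 kept their direction and side of the threshold, 8 newly passed, 22 no longer passed and 0 reversed. All 22 losses fell on the 3 members called. Clec1b passed in 5 of its 14 alternatives, Clec9a in 8 of 14 and Clec2d in 7 of 14. Many of the 80 belong to members that passed in no alternative, such as Clec4g, Clec14a and Clec12a. Chosen after seeing the data, the length of the longest coding transcript moved the mean level of Clec1b per length to 205, against 37.9 FPKM as deposited.

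Libraries with the same replicate number had deviations that correlated at 0.09, 0.15 and -0.05. Those with different numbers correlated at -0.15 to 0.09. These values do not settle whether the numbers pair the libraries, and the main test used no block. With the replicate number as a block, 416 genes, 3 members (Clec9a and Clec2d higher, Clec7a lower), 3 other C-type lectin genes and 1 signalling gene were called. Clec1b had an adjusted p of 0.0742 there and Clec7a of 0.0467 (edgeR). With 3 libraries a group and members such as Clec4n and Clec10a at 15 counts or fewer in each library, small or low-level differences may have been missed at this depth.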
